A study of Homo sapiens with 8 samples.

Results

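The mitochondrial carrier family was examined in 2 acute myeloid leukaemia cell lines with and without cinobufagin. Its members were taken as every row of the deposited expression table whose gene symbol starts with SLC25A, plus UCP1, UCP2 and UCP3. These were 48 genes in 50 rows, of 25548 gene symbols in 25593 rows. Carriers listed under other symbols, such as the MTCH and MCART genes, are outside this naming rule. They are counted with the further genes of mitochondrial membrane transport. SLC25A6 and SLC25A26 have 2 rows each. Of the 48 genes, 37 reached an FPKM (fragments scaled for transcript length and library size) of 1 in at least 2 of the 8 libraries and were tested, and 11 were not.

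The promyelocytic line HL60 carries extra copies of MYC, and the myeloblastic line Kasumi-1 carries the RUNX1-RUNX1T1 fusion. Both were kept for 24 h either untreated or in 100 nM cinobufagin, a toad-venom steroid (bufadienolide) that acts on the sodium pump (Na+/K+-ATPase). The 4 groups held 2 libraries each, numbered 1 and 2, and the medium of HL60 held less fetal bovine serum than that of Kasumi-1, so line and serum cannot be told apart. Whether the 2 libraries of each group are separate cultures is not stated in the labels. P-values therefore speak only of the variation among these libraries, and that variation may be technical. Each line stands for itself and not for a class of leukaemia.

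Carriers of this family sit in the mitochondrial inner membrane, a few in other membranes, and exchange nucleotides, phosphate, carboxylates, amino acids, cofactors and metals between the matrix and the cytosol. All are encoded in the nucleus, and most reach the inner membrane through the TIM22 import machinery. The ADP/ATP and phosphate carriers supply the ATP synthase with its substrates. Uncoupling proteins are the branch named for the proton leak of brown fat, and UCP2 is the member best known in blood cells.

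Sequence upstream of the transcription start was available from RefSeq (GRCh38.p14) for 40 of the 48 members. The expression table was made on hg19 and holds no coordinates. Each window held the 250 bases before the most upstream RefSeq start and was searched on both strands for 4 short motifs. The E-box recognised by MYC and related factors was spelled CACGTG. The letters CCAAT are those recognised by the factor NF-Y. The GC box of the SP1 family was taken as GGGCGG, and the AP-1 element was searched as TGAGTCA. The E-box CACGTG was in 6 of 40 member windows (15%) and in 6.46% of the 27305 windows of all genes. CCAAT was in 17 of 40 (42.5%, against 33%), GGGCGG in 27 of 40 (67.5%, against 42.2%) and TGAGTCA in 1 of 40 (2.5%, against 4.15%). A match is only a run of letters and not evidence of binding.

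Next are 3 stretches of 60 bases with their CCAAT matches in capitals (ATTGG where the match is on the other strand), shown because these members fell most in HL60 among those with such a match. They lie on the minus strand at chr11:73983343-73983402, chr22:19178870-19178929 and chr19:6459797-6459856.
UCP2: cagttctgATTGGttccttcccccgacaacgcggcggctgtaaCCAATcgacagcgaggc
SLC25A1: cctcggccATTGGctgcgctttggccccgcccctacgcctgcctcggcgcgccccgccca
SLC25A23: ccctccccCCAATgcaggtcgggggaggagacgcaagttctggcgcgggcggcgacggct

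The next stretches hold the CACGTG matches, in capitals, of the 3 members that have one and were called in HL60. SLC25A13 and SLC25A33 rose there and SLC25A36 fell. They lie at chr7:96322201-96322260 (minus strand), chr1:9539405-9539464 (plus strand) and chr3:140941685-140941744 (plus strand).
SLC25A13: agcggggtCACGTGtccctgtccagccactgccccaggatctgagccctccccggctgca
SLC25A33: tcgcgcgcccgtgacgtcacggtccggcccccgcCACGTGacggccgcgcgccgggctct
SLC25A36: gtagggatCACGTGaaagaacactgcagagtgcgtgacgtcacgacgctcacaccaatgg

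Among members with a window, CCAAT was in 9 of the 18 that fell in HL60 and in 3 of the 7 that rose. GGGCGG was in 16 of the 18 that fell and in 7 of the 7 that rose. The CACGTG match was in 1 of the 18 that fell and in 2 of the 7 that rose. Of the 6 tested members with a window that were not called, 2 held CCAAT, 1 held GGGCGG and 2 held CACGTG. The E-box, the CCAAT box and the GC box were thus each found among falls, rises and members not called, and the AP-1 element was in none of these windows.

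Each library had 10623 to 11371 rows at FPKM 1 or more. Without read totals the depth is unknown and no counting interval could be set. RUNX1T1, CD34 and TRH, which mark Kasumi-1, had an FPKM listed at 0 in every HL60 library and reached 19.1 ± 2.4, 59.8 ± 1.9 and 89.0 ± 2.1 FPKM (SD, n = 2) in untreated Kasumi-1. MYC and the granule genes MPO, ELANE and PRTN3, listed for HL60, summed to 4828 to 4853 FPKM in untreated and 310 to 342 in treated HL60, and all 4 fell. They summed to 9701 to 12390 in Kasumi-1, so this list does not set HL60 apart. Of the markers of other cell types, 2 of 10 erythroid, 2 of 5 T and NK, 2 of 4 B and 1 of 5 fibroblast and epithelial genes passed the filter. The last was EPCAM, at 77.9 ± 0.90 FPKM in untreated Kasumi-1 and at most 0.0359 in HL60. The T and NK list summed to 25.4 to 26.6 FPKM in untreated and 89.9 to 98.9 in treated HL60, nearly all of it NKG7, with CD8A at 0 in HL60, and the B list to 4.07 to 4.08 and 0.490 to 0.932. In Kasumi-1 the B list summed to 14.3 to 15.0 untreated and 6.36 to 10.6 treated, and the T and NK list to 2.63 to 4.16. Whether any of these shifts had a part in the carrier results was not tested. In bulk RNA, fewer cells of a type and less RNA per cell cannot be told apart, and FPKM shows no change in the total mRNA of a cell.

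The levels of the members, which FPKM makes comparable between genes, reached from 0.173 (SLC25A45 in treated HL60 replicate 1) to 499.9 (SLC25A5 in untreated Kasumi-1 replicate 2) among those tested. SLC25A5 and SLC25A6 (the ADP/ATP carriers ANT2 and ANT3) and SLC25A3 (the phosphate carrier) led in all 8 libraries. With SLC25A4 they made up 56.1% ± 0.81 (SD, n = 2) of the summed member FPKM in untreated HL60 and 58.4% ± 1.7 in treated HL60. In Kasumi-1 the same share was 62.7% ± 0.43 untreated and 67.4% ± 0.58 treated. SLC25A39, SLC25A1 and UCP2 came next in untreated cells of both lines, at 60.6 to 81.9 FPKM.

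Of the 11 members that were not tested, SLC25A2, SLC25A21, SLC25A31, SLC25A47, SLC25A48 and UCP1 were listed at 0 in all 8 libraries. SLC25A18, SLC25A27, SLC25A34, SLC25A41 and UCP3 had a value above 0 in at least 1 library. The highest of these was 0.832 FPKM, for UCP3 in treated HL60 replicate 1. SLC25A31 is the testis ADP/ATP carrier, UCP1 is the uncoupling protein of brown fat and SLC25A47 is a liver carrier.

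**Figure D1:**
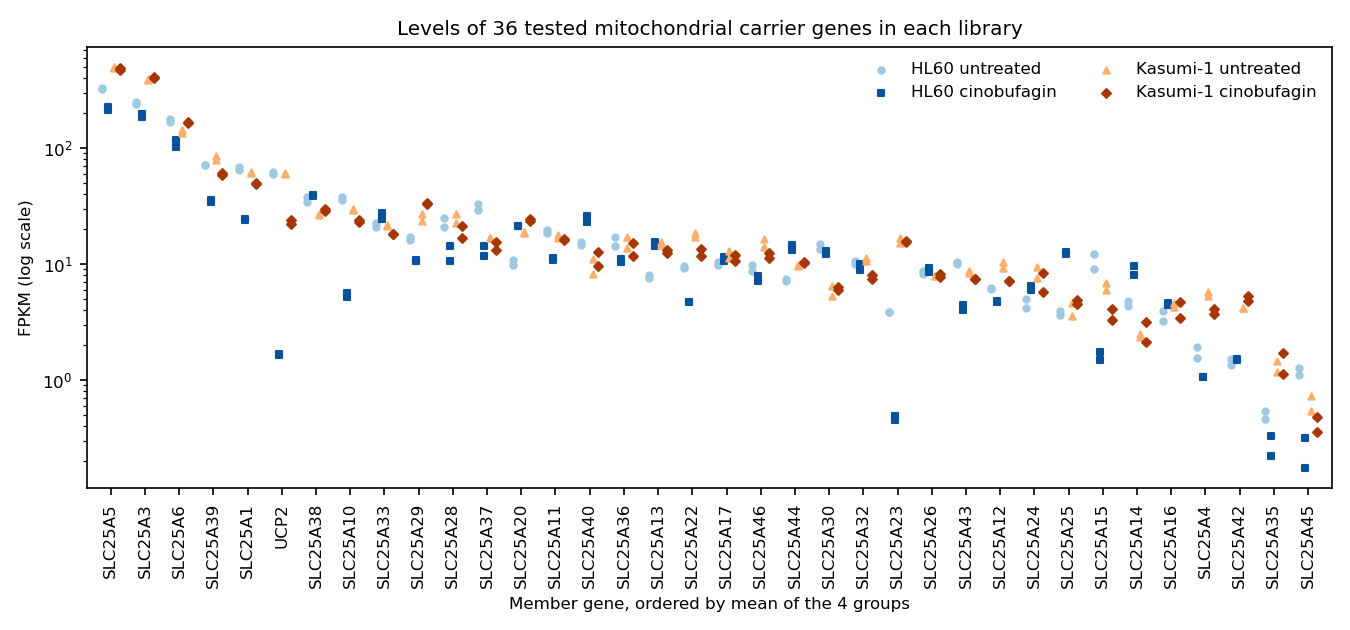
FPKM (log axis) of 36 tested members in each of the 8 libraries, ordered by the mean of the 4 groups, with 1 point per library and a colour and shape per group. SLC25A5, SLC25A3 and SLC25A6 lie above 100 FPKM in every library, and the treated HL60 points of UCP2 (1.66 and 1.64) and SLC25A23 (0.448 and 0.493) lie far below those of the other groups.

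The first comparison asked which carriers changed with cinobufagin in HL60. Of the 37 tested members, 20 fell, 7 rose and 10 did not pass the test (limma, adjusted p under 0.05 over all 12511 tested rows). Over all tested rows 37.6% fell and 36% rose. Members were thus called about as often as all tested rows (73.0% against 73.6% in either direction), with falls more frequent among them. At least 2-fold on the log2(FPKM + 1) scale, 9 members fell and 1 rose, where 14.1% and 11.9% of all rows did. The median member change was −0.36 and the median of all tested rows −0.01.

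In Kasumi-1, 10 members fell and 2 rose, where 16.2% of all rows fell and 10.1% rose. The split of all calls depends on the scaling. Rises made up 38.5% of all calls as deposited, 52.5% after median-ratio scaling and 48.3% after quantile normalization. The members counted 3 rises and 10 falls under each of these rescalings. They counted 6 falls without untreated Kasumi-1 replicate 2, 1 rise without treated Kasumi-1 replicate 1, and 5 falls and 1 rise with Kasumi-1 fitted alone. By the 2-fold limit, UCP2 fell and no member rose, against 0.256% and 0.32% of all rows. The median member change was −0.18, beside −0.04 for all tested rows.

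Summed over members, with SLC25A6 counted from 1 of its rows, carrier FPKM was 1319 and 1343 in the untreated HL60 libraries and 881 and 909 in the treated ones. In Kasumi-1 it was 1635 and 1659 untreated and 1550 and 1569 treated. Treated libraries lay below untreated ones in both lines, without overlap. After median-ratio scaling the group means were 1293 and 916 in HL60 and 1584 and 1567 in Kasumi-1, so the difference in Kasumi-1 depends on the scaling. The sum has no test and is set mostly by the 3 abundant genes.

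**Figure D2:**
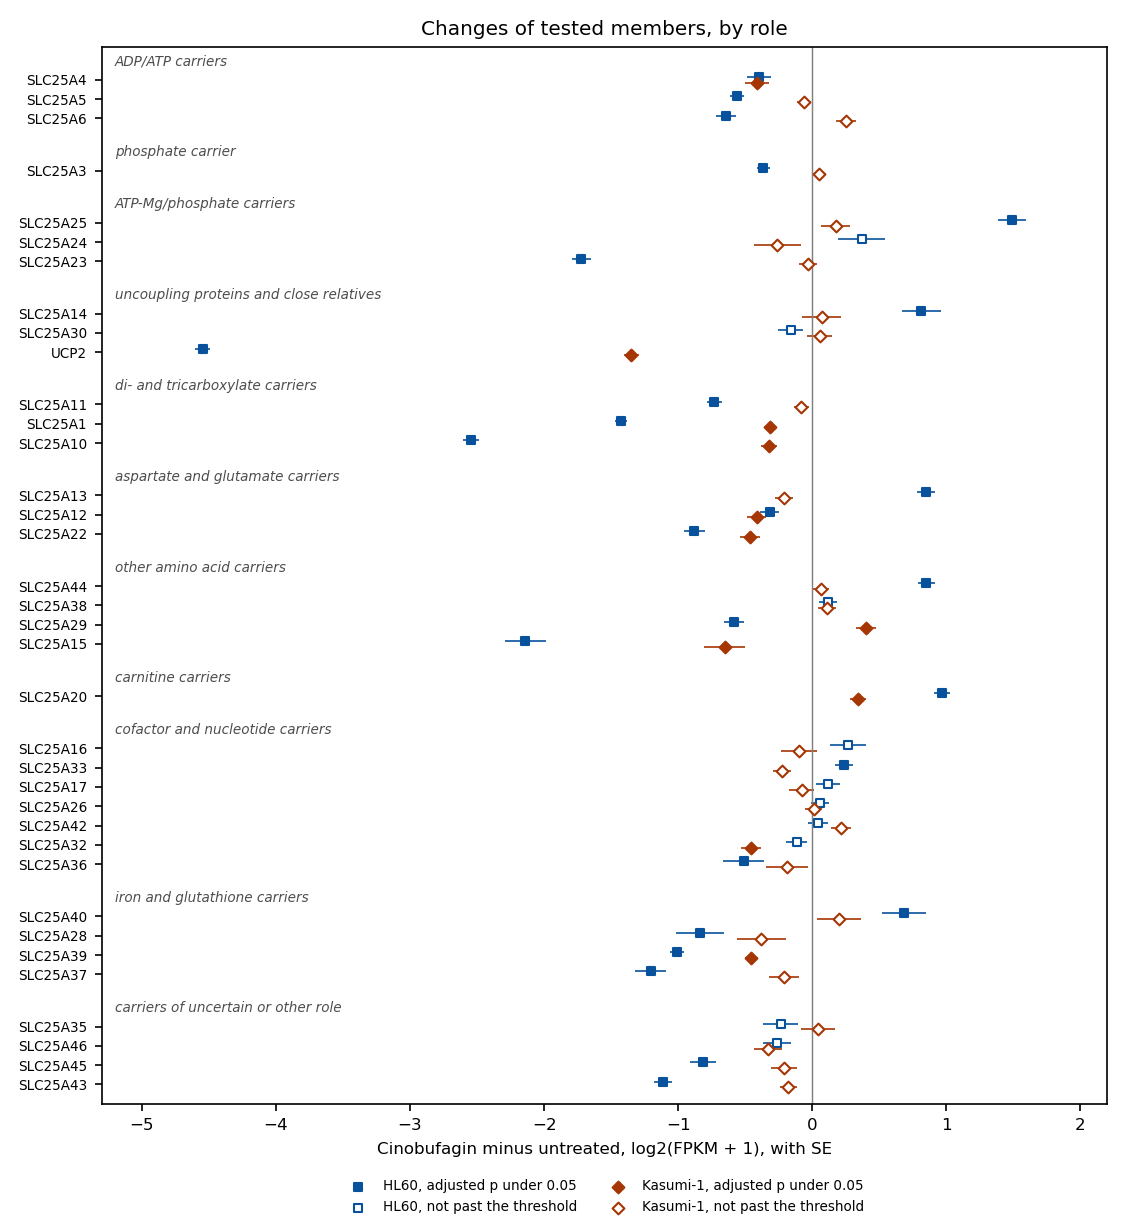
Changes of 36 tested members, cinobufagin minus untreated on the log2(FPKM + 1) scale with its SE from limma, grouped by transport role, with squares for HL60, diamonds for Kasumi-1 and filled symbols for an adjusted p under 0.05. The HL60 symbols reach from −4.55 (UCP2) to 1.49 (SLC25A25), and the Kasumi-1 symbols from −1.35 (UCP2) to 0.40 (SLC25A29).

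Among the ADP/ATP carriers, which swap cytosolic ADP for matrix ATP, 3 of 3 tested fell in HL60 and 1 of 3 in Kasumi-1. SLC25A5, the form prominent in dividing cells, was at 324 and 332 FPKM in untreated HL60 and at 215 and 228 in treated HL60. Its Kasumi-1 values were 495 and 499.9 untreated and 469 and 486 treated. The HL60 groups stood well apart and the Kasumi-1 groups by less. The log2 change was −0.56 in HL60 (SE 0.05, limma adjusted p = 8.85e-05) and −0.06 in Kasumi-1 (adjusted p = 0.469).

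SLC25A6 is a widely expressed form whose gene lies in the region shared by the X and Y chromosomes. Its first row held 167 and 177 FPKM in untreated HL60, 103 and 117 in treated HL60, 134 and 144 in untreated Kasumi-1 and 165 and 167 in treated Kasumi-1. The groups of neither line overlapped, with the treated libraries low in HL60 and high in Kasumi-1. The change was −0.64 in HL60 (SE 0.08, limma adjusted p = 0.000278) and 0.25 in Kasumi-1 (SE 0.08, adjusted p = 0.0529), past the threshold there after median-ratio scaling (adjusted p = 0.0345). Its call in Kasumi-1 also appeared when treated HL60 replicate 1 (adjusted p = 0.0394) or 2 (0.0395) was left out of the fit. The second row of the symbol held almost the same values, from 102 to 178 FPKM, so the reads of this gene may be counted in both rows. How reads were split between SLC25A5, SLC25A6 and their processed pseudogenes is not stated, and their levels are uncertain to that extent.

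SLC25A4, the form of heart and skeletal muscle, was low, at 1.54 and 1.91 FPKM in untreated HL60 and 1.05 and 1.07 in treated HL60. In Kasumi-1 it was at 5.74 and 5.27 untreated and 4.07 and 3.72 treated. It was lower in all 4 treated libraries than in the untreated libraries of the same line. The changes were −0.40 in HL60 (limma adjusted p = 0.00616) and −0.41 in Kasumi-1 (adjusted p = 0.0201). The HL60 call was lost under quantile normalization (adjusted p = 0.0718), and the Kasumi-1 call was lost without any 1 of the 4 Kasumi-1 libraries (0.0518 without treated replicate 1, 0.0861 without treated replicate 2, 0.0922 without untreated replicate 1 and 0.0539 without untreated replicate 2).

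SLC25A5 made up 65.4% ± 0.62 (SD, n = 2) of the ADP/ATP carrier FPKM in untreated HL60 and 66.7% ± 1.1 in treated HL60. In Kasumi-1 the share was 77.5% ± 0.70 untreated and 73.8% ± 0.35 treated. The order of the lines was the same with both rows of SLC25A6 summed, where the untreated shares were 48.7% in HL60 and 63.7% in Kasumi-1. In untreated HL60 SLC25A6 was then the larger form, at 51.1%, where its first row alone gave 34.3%. Which form leads there thus depends on how the rows are counted.

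The phosphate carrier SLC25A3, which brings phosphate into the matrix for ATP synthesis, was at 240 and 249 FPKM in untreated HL60 and 185 and 195 in treated HL60. Kasumi-1 held 386 and 396 untreated and 401 and 408 treated. The treated libraries were thus the lower ones in HL60 only, and the groups of neither line overlapped. SLC25A3 changed by −0.36 in HL60 (SE 0.05, limma adjusted p = 0.000678) and by 0.05 in Kasumi-1 (adjusted p = 0.524).

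The ATP-Mg/phosphate carriers, which respond to calcium and set the adenine nucleotide content of the matrix, went apart in HL60. Of 3 tested, SLC25A23 fell, SLC25A25 rose and SLC25A24 did not pass. SLC25A23 was at 3.87 and 3.82 FPKM in untreated HL60, 0.448 and 0.493 in treated HL60, 15.2 and 16.7 in untreated Kasumi-1 and 15.5 and 15.7 in treated Kasumi-1. The Kasumi-1 groups overlapped, while treated HL60 was far below untreated HL60. The HL60 change was −1.72 (SE 0.07, limma adjusted p = 2.09e-06), an 8.18-fold ratio of mean FPKM, and the Kasumi-1 change was −0.03 (SE 0.07, adjusted p = 0.797).

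SLC25A25 was at 3.97 and 3.62 FPKM in untreated HL60 and 12.6 and 12.3 in treated HL60. In Kasumi-1 it held 3.56 and 4.58 untreated and 4.85 and 4.54 treated. Only treated HL60 stood out, and the Kasumi-1 groups overlapped. On the log2(FPKM + 1) scale SLC25A25 was the sole tested member to rise at least 2-fold. Its change was 1.49 in HL60 (SE 0.11, limma adjusted p = 2.31e-05), beside 0.17 in Kasumi-1 (adjusted p = 0.272). SLC25A24 changed by 0.37 in HL60 (adjusted p = 0.0979) and by −0.26 in Kasumi-1 (adjusted p = 0.324). None of the 3 passed in Kasumi-1.

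UCP2 had the largest change of the tested members in both lines. It was at 60.0 and 61.8 FPKM in untreated HL60 and 1.66 and 1.64 in treated HL60. In Kasumi-1 it was at 60.2 and 61.0 untreated and 24.2 and 22.2 treated. The untreated lines were at like levels (difference −0.01, SE 0.05, limma adjusted p = 0.928), and all treated libraries were below all untreated ones. Untreated means were 37.0-fold the treated mean in HL60 and 2.61-fold in Kasumi-1. The Kasumi-1 change was −1.35 (SE 0.05, limma adjusted p = 0.00042), beside −4.55 in HL60 (SE 0.05, adjusted p = 1.28e-07). The 2 replicate numbers gave −4.52 and −4.58 in HL60 and −1.28 and −1.42 in Kasumi-1. Ordered by log2 change, UCP2 was number 28 among the falls of all 12511 rows in HL60 and number 43 in Kasumi-1.

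The relatives of the uncoupling proteins did not share this change. SLC25A14 (UCP5) rose by 0.82 in HL60 (limma adjusted p = 0.00214), from 4.55 ± 0.31 to 8.79 ± 1.1 FPKM, and SLC25A30 changed by −0.16 there (adjusted p = 0.168). In Kasumi-1 they changed by 0.07 (adjusted p = 0.77) and 0.06 (adjusted p = 0.696). UCP3 was below the filter, at 0.468 and 0.245 FPKM in untreated HL60 and 0.832 and 0.804 in treated HL60, and at 0.322 to 0.519 in Kasumi-1.

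All 3 tested di- and tricarboxylate carriers fell in HL60, and 2 of the 3 fell in Kasumi-1. SLC25A10, which exports malate or succinate for phosphate, was at 35.4 and 37.8 FPKM in untreated HL60, 5.21 and 5.67 in treated HL60, 29.5 and 29.7 in untreated Kasumi-1 and 23.2 and 23.8 in treated Kasumi-1. The treated libraries were lower in both lines without overlap, and by far more in HL60. The change was −2.55 in HL60 (SE 0.06, limma adjusted p = 3.23e-07) and −0.32 in Kasumi-1 (SE 0.06, adjusted p = 0.0112). The Kasumi-1 call was lost without treated replicate 1 (adjusted p = 0.0543), untreated replicate 1 (0.0511) or untreated replicate 2 (0.0548).

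SLC25A1 exports citrate, from which the cytosol makes acetyl-CoA for lipid synthesis. It was at 68.2 and 65.3 FPKM in untreated HL60 and 24.6 and 23.8 in treated HL60. In Kasumi-1 it was at 61.8 and 61.5 untreated and 49.7 and 48.8 treated. Again the treated libraries were the lower ones in both lines. The HL60 change was −1.43 (SE 0.04, limma adjusted p = 9e-07) and the Kasumi-1 change −0.32 (SE 0.04, adjusted p = 0.00521). SLC25A11, the oxoglutarate/malate carrier of the malate-aspartate shuttle, fell by 0.73 on the log2 scale in HL60 (adjusted p = 3.2e-05) and changed by −0.08 in Kasumi-1 (adjusted p = 0.337).

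The aspartate/glutamate carriers, the other arm of that shuttle, moved apart in HL60. SLC25A12 (aralar) fell by 0.32 on the log2 scale (limma adjusted p = 0.00536, and 0.0512 under quantile normalization), while SLC25A13 (citrin) rose by 0.85 (adjusted p = 3.62e-05), from 7.78 ± 0.30 to 14.8 ± 0.89 FPKM (SD, n = 2). SLC25A22, a glutamate carrier, fell by 0.88 (adjusted p = 6.56e-05), from 9.47 ± 0.28 to 4.70 ± 0.057. In Kasumi-1 SLC25A12 fell by 0.41 (adjusted p = 0.00892) and SLC25A22 by 0.46 (adjusted p = 0.00874), and SLC25A13 changed by −0.21 (adjusted p = 0.0632). With Kasumi-1 fitted alone, the first 2 of these were not called (adjusted p = 0.0668 and 0.0621).

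Of the 4 other amino acid carriers tested, 2 fell and 1 rose in HL60. SLC25A15, the ornithine carrier of the urea cycle, was at 9.10 and 12.1 FPKM in untreated HL60, 1.75 and 1.48 in treated HL60, 5.96 and 6.80 in untreated Kasumi-1 and 3.28 and 4.13 in treated Kasumi-1. Its treated libraries were lower in both lines, without overlap. The changes were −2.14 in HL60 (SE 0.15, limma adjusted p = 2.37e-05) and −0.65 in Kasumi-1 (SE 0.15, adjusted p = 0.0248). The Kasumi-1 call was lost without treated replicate 1 (adjusted p = 0.11), untreated replicate 1 (0.0628) or untreated replicate 2 (0.111).

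SLC25A29, a carrier of basic amino acids, was the one member called in opposite directions. It was at 17.0 and 16.1 FPKM in untreated HL60 and 10.8 and 10.6 in treated HL60, and at 27.0 and 23.3 in untreated Kasumi-1 and 33.9 and 33.1 in treated Kasumi-1. Treated libraries were lower in HL60 and higher in Kasumi-1, without overlap in either line. It fell by 0.58 on the log2 scale in HL60 (SE 0.07, limma adjusted p = 0.00041) and rose by 0.40 in Kasumi-1 (SE 0.07, adjusted p = 0.0118). Over all rows, 1.97% had this pair of calls. Without treated Kasumi-1 replicate 1 the rise was not called (adjusted p = 0.0571). SLC25A44, which carries branched-chain amino acids, rose by 0.85 in HL60 (adjusted p = 2.56e-05). SLC25A38, which serves the glycine supply of heme synthesis, changed by 0.12 in HL60 (adjusted p = 0.137) and by 0.11 in Kasumi-1 (adjusted p = 0.252).

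SLC25A20, the carnitine/acylcarnitine carrier that brings fatty acids to beta-oxidation, was the only member to rise in both lines, where 6.49% of all rows did. It was at 10.9 and 9.89 FPKM in untreated HL60, 21.4 and 21.2 in treated HL60, 18.9 and 18.6 in untreated Kasumi-1 and 24.3 and 23.7 in treated Kasumi-1. The treated libraries were the higher ones in both lines. The change was 0.97 in HL60 (SE 0.06, limma adjusted p = 1.12e-05) and 0.34 in Kasumi-1 (SE 0.06, adjusted p = 0.00914). As a ratio of mean FPKM the HL60 rise was 2.05-fold.

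Of 8 cofactor and nucleotide carriers, 2 fell and 1 rose in HL60, and 2 fell in Kasumi-1. Among the pyrimidine nucleotide carriers, SLC25A36 fell by 0.51 on the log2 scale in HL60 (limma adjusted p = 0.0215) and SLC25A33 rose by 0.24 (adjusted p = 0.0159). The fall of SLC25A36 was not called without treated replicate 1 (adjusted p = 0.0943), treated replicate 2 (0.0651) or untreated replicate 2 (0.114), and the rise of SLC25A33 was not called without treated replicate 1 (0.0789) or untreated replicate 2 (0.0891). SLC25A32, a folate and FAD carrier, fell by 0.46 in Kasumi-1 (adjusted p = 0.00922, and 0.0519 without untreated replicate 2) and changed by −0.12 in HL60 (adjusted p = 0.218). The CoA carriers SLC25A16 and SLC25A42 and the peroxisomal SLC25A17 passed in neither line, with changes from −0.10 to 0.27.

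SLC25A26, which imports S-adenosylmethionine, has 2 rows that alternate. The first was listed at 0 in all 4 libraries numbered 1 and at 7.78 to 9.24 FPKM in those numbered 2, and the second at 0 in those numbered 2 and at 7.89 to 8.68 in those numbered 1. Of 45 symbols with more than 1 row, 5 alternated in this way. Neither row is a measurement of change by itself. Summed over its rows, SLC25A26 was at 8.68 and 8.28 FPKM in untreated HL60 and 8.52 and 9.24 in treated HL60, and at 7.78 to 8.12 in Kasumi-1. The sum changed by 0.06 in HL60 (SE 0.06, limma adjusted p = 0.438) and by 0.01 in Kasumi-1 (adjusted p = 0.926).

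Of the 4 iron and glutathione carriers, 3 fell and 1 rose in HL60. SLC25A37 (mitoferrin 1), which feeds iron to heme synthesis in erythroid cells, was at 33.3 and 29.2 FPKM in untreated HL60, 14.2 and 11.8 in treated HL60, 16.9 and 16.6 in untreated Kasumi-1 and 15.5 and 13.2 in treated Kasumi-1. The groups did not overlap in either line, with the widest gap in HL60. The change was −1.21 in HL60 (SE 0.11, limma adjusted p = 8.77e-05) and −0.21 in Kasumi-1 (SE 0.11, adjusted p = 0.222). Of the 10 erythroid markers, 5 were at 0 (HBB, HBG1, HBG2 and GYPB among them) in all libraries, and the list summed to 4.95 to 5.15 FPKM in untreated and 7.54 to 7.80 in treated HL60 and to 5.09 to 5.75 in Kasumi-1. The 2 tested markers went apart in HL60, where EPOR rose from 3.94 ± 0.077 to 7.46 ± 0.15 FPKM (limma adjusted p = 6.35e-05) and KLF1 fell from 1.09 ± 0.20 to 0.136 ± 0.076 (adjusted p = 0.000488).

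SLC25A28 (mitoferrin 2), the widely expressed iron importer, was at 25.0 and 20.7 FPKM in untreated HL60 and 14.3 and 10.6 in treated HL60. In Kasumi-1 it was at 27.0 and 22.8 untreated and 21.3 and 16.6 treated. In all 4 groups replicate 1 was the higher library, and the treated libraries lay below the untreated ones in both lines. The change was −0.83 in HL60 (SE 0.18, limma adjusted p = 0.00513) and −0.38 in Kasumi-1 (SE 0.18, adjusted p = 0.173). The Kasumi-1 result depends on the model. With the replicate number as a block, limma called that change (adjusted p = 0.00421) and the difference between the lines (0.00233). What the numbers stand for is not stated.

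SLC25A39, which imports glutathione, was at 70.9 and 71.8 FPKM in untreated HL60, 34.4 and 35.5 in treated HL60, 84.8 and 79.0 in untreated Kasumi-1 and 60.4 and 58.6 in treated Kasumi-1. Treated libraries were lower in both lines, without overlap. It fell by 1.01 on the log2 scale in HL60 (SE 0.05, limma adjusted p = 5.27e-06) and by 0.45 in Kasumi-1 (SE 0.05, adjusted p = 0.00286). Its close relative SLC25A40 rose by 0.68 in HL60 (SE 0.16, adjusted p = 0.00845), from 14.9 ± 0.63 to 24.6 ± 2.0 FPKM, a call that was lost without treated replicate 2 (adjusted p = 0.0548).

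Among carriers of uncertain or other role, 2 of 4 tested fell in HL60 and none passed in Kasumi-1. SLC25A43 was at 10.1 and 10.5 FPKM in untreated HL60 and 4.03 and 4.41 in treated HL60. Its Kasumi-1 values were 8.33 and 8.77 untreated and 7.44 and 7.45 treated. It was lower in the treated libraries of both lines, and the change was −1.11 in HL60 (SE 0.06, limma adjusted p = 9.53e-06) and −0.18 in Kasumi-1 (adjusted p = 0.0897). SLC25A45 fell by 0.81 on the log2 scale in HL60 (adjusted p = 0.000298), from a mean of 1.18 FPKM, a level at which this scale understates the ratio. Only its untreated HL60 libraries (1.10 and 1.27 FPKM) reached 1, with 0.173 to 0.733 in the others. SLC25A45 thus entered the test only through the group where it was high, and its call is not independent of the filter. SLC25A46, an outer membrane protein of mitochondrial dynamics, changed by −0.26 in HL60 (adjusted p = 0.0595) and by −0.33 in Kasumi-1 (adjusted p = 0.0645).

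**Figure D3:**
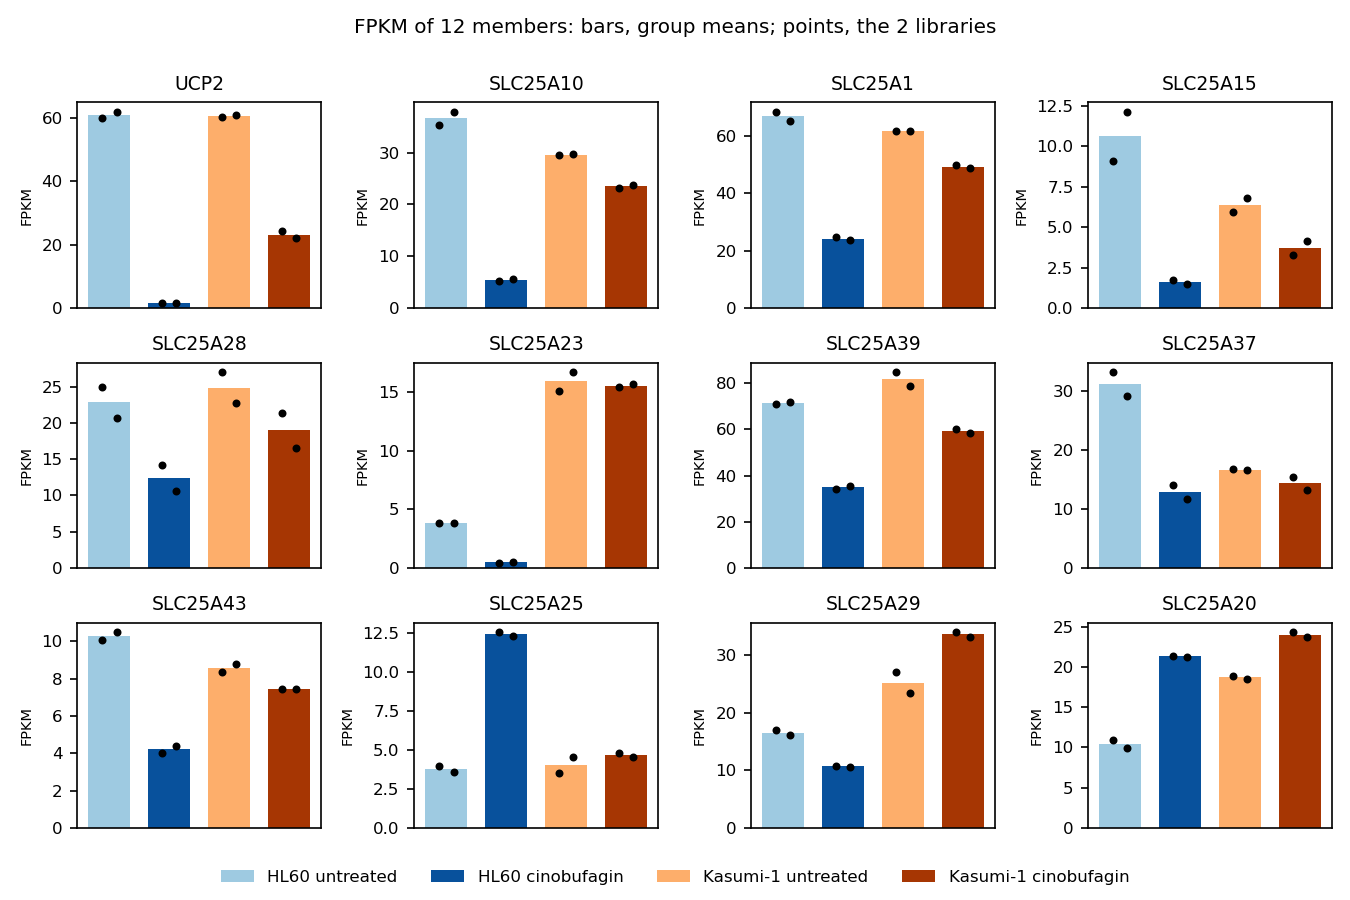
FPKM of 12 members in the 4 groups, with bars from 0 for the mean and points for the 2 libraries of each group. The treated HL60 bar is the lowest of the 4 for UCP2, SLC25A10, SLC25A1, SLC25A15, SLC25A28, SLC25A23, SLC25A39, SLC25A37, SLC25A43 and SLC25A29, and the highest for SLC25A25.

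The lines were then compared in their response. The test of the difference of the changes (Kasumi-1 minus HL60) called 16 members with a higher value in Kasumi-1, where 30.1% of all rows were called, and 7 with a lower value, where 33.1% were. In either direction this is 62.2% of members and 63.1% of all rows. At least 2-fold, 6 members were higher and 2 lower, where 11.1% and 10.3% of all rows were. The widest difference was that of UCP2 (3.20, SE 0.08, limma adjusted p = 1.8e-06), then SLC25A10 (2.22, SE 0.08, adjusted p = 5.78e-06) and SLC25A23 (1.69, SE 0.10, adjusted p = 2.54e-05). On the other side SLC25A25 (−1.31, adjusted p = 0.000405) and SLC25A13 (−1.06, adjusted p = 0.000142) rose in HL60 and did not pass in Kasumi-1. The absolute change was larger in HL60 for 32 of the 37 members (86.5%), and for 80.6% of all tested symbols.

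In both lines 9 members fell, beside 10.6% of all rows. Among them were UCP2, SLC25A1, SLC25A4, SLC25A10, SLC25A12, SLC25A15, SLC25A22 and SLC25A39. The 9 are 45% of the members that fell in HL60 and 90% of those that fell in Kasumi-1. Over all rows, 1331 fell in both lines, of 4707 that fell in HL60 and 2026 that fell in Kasumi-1. Most Kasumi-1 falls of all rows were thus HL60 falls as well. The difference of the changes did not pass the test for SLC25A4 (−0.01, limma adjusted p = 0.944) and SLC25A12 (−0.09, adjusted p = 0.432), and passed for the other 7. No member rose in HL60 and fell in Kasumi-1, where 2.11% of all rows did.

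**Figure D4:**
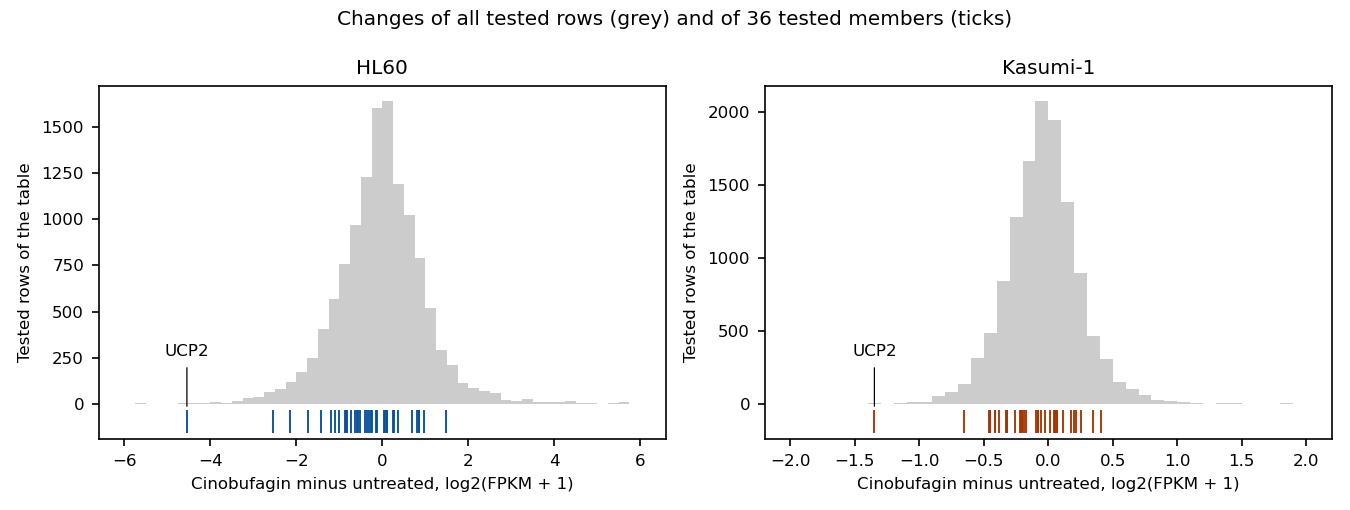
Histograms of the change of all 12511 tested rows (grey; x axis, cinobufagin minus untreated on the log2(FPKM + 1) scale; y axis, rows) in HL60 and in Kasumi-1, with 1 tick below for each of 36 tested members. UCP2 is the leftmost tick in both panels, at −4.55 and −1.35, and rows beyond the axes (29 in HL60, 65 in Kasumi-1) are not drawn.

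Before treatment, 16 members were higher in Kasumi-1 than in HL60 and 10 lower, where 35.9% and 33.8% of all rows were. In either direction this is 70.3% of members and 69.7% of all rows. At least 2-fold, SLC25A23 (3.85 ± 0.039 against 15.9 ± 1.1 FPKM, difference 1.80), SLC25A4 (1.72 ± 0.26 against 5.51 ± 0.33, difference 1.26) and SLC25A42 (1.43 ± 0.13 against 4.18 ± 0.038, difference 1.09) were higher in Kasumi-1, and SLC25A30 (14.2 ± 0.97 against 5.89 ± 0.76, difference −1.14) was lower, with limma adjusted p from 1.34e-06 to 4.87e-05. Of all rows, 13.8% and 10.2% passed this limit in each direction. SLC25A5 (difference 0.60), SLC25A3 (0.67) and all 3 tested aspartate and glutamate carriers were also higher in Kasumi-1, and SLC25A37 (−0.86) was lower. Calls for SLC25A6, SLC25A39, SLC25A40 and SLC25A43 were lost when 1 library was left out. Without untreated Kasumi-1 replicate 1 their adjusted p was 0.0606, 0.0717, 0.0828 and 0.0735. Without untreated HL60 replicate 2 it was 0.0619 for SLC25A6, 0.0744 for SLC25A40 and 0.0786 for SLC25A43, and without untreated HL60 replicate 1 it was 0.0615 for SLC25A39.

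Other genes of mitochondrial import and transport, and regulators of mitochondrial genes, were followed as 3 further lists. Of 27 genes of mitochondrial protein import, 16 fell and 4 rose in HL60 and 10 fell and none rose in Kasumi-1, with medians of −0.42 and −0.27. Over all rows 37.6% fell and 36% rose in HL60, and 16.2% fell and 10.1% rose in Kasumi-1. TIMM13, a small chaperone of the intermembrane space, was at 65.6 ± 5.6 FPKM in untreated and 14.0 ± 1.2 in treated HL60. AGK, a lipid kinase that is also a subunit of the TIM22 complex, fell by 1.81 on the log2 scale in HL60 (limma adjusted p = 1.33e-06) and by 0.38 in Kasumi-1 (adjusted p = 0.00914). TIMM9 (−1.51) and DNAJC19 (−1.42) also fell in HL60, while TIMM22, the channel of that complex, rose by 0.37 (adjusted p = 0.0102).

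Of 26 further genes of mitochondrial membrane transport, 11 rose and 10 fell in HL60 and 2 rose and 5 fell in Kasumi-1, which is near the shares of all rows. SFXN2, a sideroflexin, had the widest change, from 14.3 ± 0.11 to 0.682 ± 0.16 FPKM in HL60, and fell by 0.72 on the log2 scale in Kasumi-1 (limma adjusted p = 0.00618). SFXN4 (−2.47), ABCB10 (−2.16) and VDAC3 (−1.62) also fell in HL60. MTCH1, a carrier outside the naming rule of the members, rose there by 1.36 (limma adjusted p = 2.2e-06). The list as a whole went both ways, with a median of 0.03 there and −0.05 in Kasumi-1.

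Of 16 tested regulators of mitochondrial genes, 7 rose and 6 fell in HL60 and 2 rose and 3 fell in Kasumi-1, again near the shares of all rows, with medians of 0.04 and −0.10. MYC fell by 4.64 on the log2 scale in HL60 and by 0.62 in Kasumi-1. PPARG, a nuclear receptor of lipid metabolism, was at 0.686 ± 0.17 FPKM in untreated and 32.4 ± 0.14 in treated HL60 and listed at 0 in all Kasumi-1 libraries. PPARD rose by 1.78 and TFB1M, a mitochondrial rRNA methyltransferase, fell by 1.55 in HL60, both called by limma. Among the 7 rises, PPARG and PPARD reached FPKM 1 only in treated HL60. They entered the test only through that group, and their calls are not independent of the filter. PPARGC1A, a coactivator of mitochondrial biogenesis, was listed at 0 in 7 of 8 libraries and PPARGC1B fell by 0.92 in HL60.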

How the data were processed

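RNA sequencing libraries (poly(A)-selected, TruSeq Stranded mRNA, per the labels' protocols) of HL60 and Kasumi-1 were analysed, 4 groups of 2, all from the 100 nM, 24 h experiment. The authors deposited a table of FPKM values per gene and library, made with bcl2fastq 2.20.0, HISAT2 2.1.0 and Cufflinks 2.2.1 on hg19 per the submitters' processing notes. Annotation, strand setting and filters are not given in the sources, so overlapping and antisense genes may share reads, and with no counts the depth is unknown. All 8 columns were used.

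From these values log2(FPKM + 1) was tested with limma 3.58.1 (R 4.3.3, intensity trend) in 1 model of all 8 libraries with 4 residual degrees of freedom. The 12511 rows that reached FPKM 1 in 2 or more libraries were tested, with Benjamini-Hochberg adjustment over all of them and a threshold of 0.05. As a group holds 2 libraries, a row can pass this filter through a single group where it is high. The scale understates changes of low genes. A permutation of 2 against 2 libraries cannot go below 0.333. Groups of 2 libraries without overlap are thus a description and not a test, and their share over all rows was not counted. The HL60 comparison alone was tested on simulated data, with independent noise and few changed genes, a setting unlike these data. The other comparisons were not simulated.

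Members, gene lists and motifs were chosen with earlier results of these data known. Values in every library are given for the ADP/ATP and phosphate carriers, UCP2, the mitoferrins, members called in opposite directions and those with a called change of at least 1; other members by role, with up to 4 examples. Some items that this rule names are not reported here, though they are in the counts. Other pseudocounts, filters, scalings, sets of libraries, a replicate block and, added after seeing the data, summed rows were tried.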

Additional observations from a re-analysis of the deposited data

Results flagged for a closer look

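The change with cinobufagin differed between the lines for 23 members, by limma's test of the difference itself (Kasumi-1 change minus HL60 change, adjusted p under 0.05, log2 scale), where 63.1% of all tested rows did. The positive differences reported were UCP2 (3.20), SLC25A10 (2.22), SLC25A23 (1.69), SLC25A15 (1.49), SLC25A1 (1.11), SLC25A37 (1.00), SLC25A29 (0.99), SLC25A43 (0.93), SLC25A6 (0.90), SLC25A11 (0.65), SLC25A45 (0.61), SLC25A39 (0.56), SLC25A5 (0.50), SLC25A22 (0.41) and SLC25A3 (0.41). The negative ones were SLC25A25 (−1.31), SLC25A13 (−1.06), SLC25A44 (−0.78), SLC25A14 (−0.75), SLC25A20 (−0.63), SLC25A33 (−0.46) and SLC25A32 (−0.34). Of those listed, SLC25A45 passed the filter only through untreated HL60, where it was high.

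Leaving out each library in turn kept 20 of the 23 calls. The call for SLC25A22 was lost without untreated HL60 replicate 1 (adjusted p = 0.0528) or untreated Kasumi-1 replicate 2 (0.0522). That for SLC25A14 was lost without treated HL60 replicate 1 (0.0653), untreated HL60 replicate 2 (0.059) or untreated Kasumi-1 replicate 2 (0.0549). The call for SLC25A32 was lost without treated HL60 replicate 2 (0.0995), untreated HL60 replicate 1 (0.102) or 2 (0.0515), treated Kasumi-1 replicate 2 (0.091) or untreated Kasumi-1 replicate 2 (0.0959).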

How the results depend on the processing

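No member's called change reversed under any alternative run. Leaving out each library kept 24 of 27 calls in HL60 and 7 of 12 in Kasumi-1. In these runs the counts of members ranged from 19 to 21 falls and 6 to 9 rises in HL60, and from 6 falls (without untreated Kasumi-1 replicate 2) to 11 and 1 rise (without treated Kasumi-1 replicate 1) to 3 in Kasumi-1. With Kasumi-1 fitted alone, 5 fell and 1 rose. Quantile normalization gave 18 falls and 7 rises in HL60. For the difference between the lines it lost the calls of SLC25A22 (limma adjusted p = 0.0713) and SLC25A32 (0.0579) and gained 1. Without the filter on low values, the differences of SLC25A14 (limma adjusted p = 0.0759) and SLC25A32 (0.0699) were not called. With the replicate number as a block, HL60 counted 21 falls and 9 rises and Kasumi-1 16 falls and 3 rises, among them SLC25A28 (adjusted p = 0.00421 in limma, and 0.00233 for the difference between the lines). Same-numbered libraries of different groups deviated together (correlation across genes 0.125 to 0.331 over 6 pairs of groups). Without short RNA genes, LOC symbols and symbols with more than 1 row it was 0.265 to 0.480. The block is 1 term shared by the 4 groups. The labels tie the numbers to nothing, so the block was not used in the main model. After median-ratio scaling the summed member FPKM was 1293 and 916 in untreated and treated HL60 and 1584 in untreated Kasumi-1. With both rows of SLC25A6 summed, SLC25A5 made up 48.7% and 50.1% of the ADP/ATP carriers in untreated and treated HL60 and 63.7% and 58.8% in Kasumi-1. The cause of these shifts was not tested beyond what each alternative changes by construction. Unknown depth limits the members with low FPKM, and 2 libraries per group limit the small changes in Kasumi-1.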
